A study of Homo sapiens with 32 samples.

Results

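The sites bound by the HNF4α isoform P2-α8 were compared between Panc10.05 and BxPC3, 2 human cell lines of pancreatic ductal adenocarcinoma. The members are the 4 chromatin immunoprecipitation sequencing (ChIP-seq) peak lists of P2-α8, 2 from each line, among 32 libraries in the series. Peaks of the 4 lists that overlapped by at least 1 bp were merged into 48760 regions. A region found in both lists of one line and in neither list of the other was classed as specific to that line, and a region found in all 4 lists as shared. Every library used here was made with a pan-HNF4α antibody, which does not distinguish the isoforms, from cells crosslinked with disuccinimidyl glutarate and then formaldehyde. The isoform was expressed from a doxycycline-inducible construct in both lines. Panc10.05 P2-α8 cells received 12.5 ng/mL doxycycline and BxPC3 P2-α8 cells 500 ng/mL. The titles of the BxPC3 libraries join α8 with P1, but their genotype label reads P2-α8 and was used. The P1 isoform α2, induced with 25 ng/mL in Panc10.05 and 500 ng/mL in BxPC3 (2 lists each), and the third line AsPC1, which carries a control guide (sgNC) or a CRISPR interference guide against the P1 or P2 promoter (6 pan-HNF4α lists in all), served as lists that were not used to class the regions. The lists hold no expression values, so the identity of the lines was not checked against marker genes. Line, doxycycline dose and the sequencing series named in the library names differ together between the groups, and their parts in any difference cannot be told apart.

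HNF4α is a nuclear receptor that binds DNA as a homodimer at direct repeats of the receptor half-site with a single base between them, known as DR1 elements. It is a main regulator of genes of the liver, gut and endocrine pancreas, among them apolipoproteins, clotting factors and enzymes of glucose metabolism. Transcription from the P1 or the P2 promoter gives isoforms with different N-termini and the same DNA-binding domain; P2 isoforms lack the N-terminal activation domain of P1 isoforms. In pancreatic cancer HNF4α is known as a factor of the classical, more differentiated subtype, while basal-like tumours express squamous genes.

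As examples of sequence at gene starts, the 250 bases upstream of 7 start sites are printed. They were chosen after their values were seen from the 5 promoters of each class with the highest ranks. Every one of those promoters that held a marked match is printed, and those left out held none. The printed set thus does not show how frequent matches are in a class, and the shares over all windows are given further below. The sequences are those of RefSeq (GRCh38.p14), written 5′ to 3′ on the strand of the gene. Capitals mark matches on either strand to CAAAGTCC or CAAAGNNCA (N being any base), short forms of the HNF4 element that can overlap each other, or to TGANTCA, the element bound by the AP-1 factors FOS and JUN.

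AATK (shared, chr17:81131955-81132204, minus strand): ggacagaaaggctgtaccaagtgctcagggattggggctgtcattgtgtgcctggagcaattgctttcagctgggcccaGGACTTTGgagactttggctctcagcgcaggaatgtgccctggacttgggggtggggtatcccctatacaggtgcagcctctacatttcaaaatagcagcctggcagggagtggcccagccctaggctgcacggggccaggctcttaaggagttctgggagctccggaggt
SLCO2B1 (shared, chr11:75159582-75159831, plus strand): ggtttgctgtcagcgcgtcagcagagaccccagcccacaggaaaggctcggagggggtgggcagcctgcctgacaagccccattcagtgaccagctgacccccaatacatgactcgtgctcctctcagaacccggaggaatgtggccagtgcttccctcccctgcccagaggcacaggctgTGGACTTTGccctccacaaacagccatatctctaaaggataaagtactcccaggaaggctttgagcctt
COX17 (Panc10.05-specific, chr3:119677004-119677253, minus strand): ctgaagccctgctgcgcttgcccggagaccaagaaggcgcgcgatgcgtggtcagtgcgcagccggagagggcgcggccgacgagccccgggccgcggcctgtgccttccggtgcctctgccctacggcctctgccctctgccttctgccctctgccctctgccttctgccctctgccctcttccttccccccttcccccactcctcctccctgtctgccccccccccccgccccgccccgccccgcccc
JPT1 (Panc10.05-specific, chr17:75153294-75153543, minus strand): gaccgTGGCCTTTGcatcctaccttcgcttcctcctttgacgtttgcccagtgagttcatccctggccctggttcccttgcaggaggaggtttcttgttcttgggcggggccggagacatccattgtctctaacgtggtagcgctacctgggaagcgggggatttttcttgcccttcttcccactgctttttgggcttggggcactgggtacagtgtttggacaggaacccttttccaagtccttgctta
CD9 (BxPC3-specific, chr12:6225889-6226138, plus strand): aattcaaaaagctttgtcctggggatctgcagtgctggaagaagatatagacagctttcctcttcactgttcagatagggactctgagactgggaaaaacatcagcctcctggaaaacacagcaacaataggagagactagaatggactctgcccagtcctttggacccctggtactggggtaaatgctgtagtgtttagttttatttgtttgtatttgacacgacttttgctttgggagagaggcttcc
SARDH (BxPC3-specific, chr9:133739956-133740205, minus strand): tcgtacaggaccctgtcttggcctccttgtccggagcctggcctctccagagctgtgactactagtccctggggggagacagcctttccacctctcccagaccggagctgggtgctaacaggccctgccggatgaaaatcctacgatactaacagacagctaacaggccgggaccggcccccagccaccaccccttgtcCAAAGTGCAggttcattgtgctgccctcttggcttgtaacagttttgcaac
SPRR1B (BxPC3-specific, chr1:153030953-153031202, plus strand): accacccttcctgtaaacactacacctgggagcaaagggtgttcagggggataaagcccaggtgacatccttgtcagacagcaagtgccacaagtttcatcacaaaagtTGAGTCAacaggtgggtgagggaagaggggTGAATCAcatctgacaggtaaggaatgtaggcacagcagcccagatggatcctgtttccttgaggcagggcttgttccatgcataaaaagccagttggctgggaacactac

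In SLCO2B1, a solute carrier gene, the overlapping matches began at base 182 and the peak summits of the 4 lists lay between bases 75 and 197. In AATK, which encodes a kinase, the match began at base 80 and the summits lay at bases 113 to 161. In SARDH, which encodes sarcosine dehydrogenase, the match began at base 200 and the summits of the BxPC3 lists lay at bases 181 to 229. In JPT1 the match began at base 6 and the Panc10.05 summits lay at bases 6 to 21. SPRR1B, a gene of the squamous cornified envelope, held TGANTCA at bases 110 and 140, and the BxPC3 summits lay at bases 2 to 50. The windows of COX17, a copper chaperone gene, and CD9, a tetraspanin gene, held neither element. The regions at COX17 and JPT1, specific to Panc10.05 in the P2-α8 lists, were also in both BxPC3 P1-α2 lists. In AsPC1 the COX17 region was in all 6 lists and the JPT1 region in most of them. The regions at CD9, SARDH and SPRR1B were in neither Panc10.05 P1-α2 list.

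P2-α8 gave more peaks in Panc10.05 than in BxPC3. The Panc10.05 lists held 39111 and 33646 peaks (36379 ± 3864, SD, n = 2) and the BxPC3 lists 12681 and 14666 (13674 ± 1404, SD, n = 2), so the groups did not overlap. The log2 ratio was 1.41, or 2.66-fold, beside a replicate spread of 0.15 in log2 units, so the difference exceeded that spread. Its two-sided exact permutation p was 0.333, also after Benjamini-Hochberg adjustment over 3 tests, and this is the smallest p that 2 lists against 2 allow. Peaks were also wider in Panc10.05, with medians of 497 and 462 bp against 343 and 371 bp. The lists covered 22.7 and 17.8 Mb in Panc10.05 and 4.78 and 6.10 Mb in BxPC3. The highest fold enrichment in a list, the authors' value for each peak, was 142 and 178 in Panc10.05 and 53.2 and 53.0 in BxPC3. The read depth behind the lists is unknown, and its part in these differences was not tested.

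Of the merged regions, 18725 were specific to Panc10.05 (38.4% of all), 1984 were specific to BxPC3 (4.07%) and 6383 were shared (13.1%). A further 15787 regions were found in 1 list alone. Most of what both BxPC3 lists held was also in both Panc10.05 lists: the shared regions made up 71.1% of the 8983 regions in both BxPC3 lists and 21.6% of the 29499 regions in both Panc10.05 lists. Just outside the classes, 4391 regions were in both Panc10.05 lists and 1 BxPC3 list, and 616 in both BxPC3 lists and 1 Panc10.05 list. The excess of Panc10.05-specific regions was far smaller with lists of equal length. With each list cut to its 12681 peaks of highest fold enrichment, the counts were 4254 for Panc10.05, 3376 for BxPC3 and 3474 shared. Leaving out a list relaxes the rule, and the BxPC3-specific count then became 4259 without BxPC3 replicate 1 and 3621 without BxPC3 replicate 2. Median widths were 551 bp for Panc10.05-specific, 416.5 bp for BxPC3-specific and 718 bp for shared regions.

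**Figure D1:**
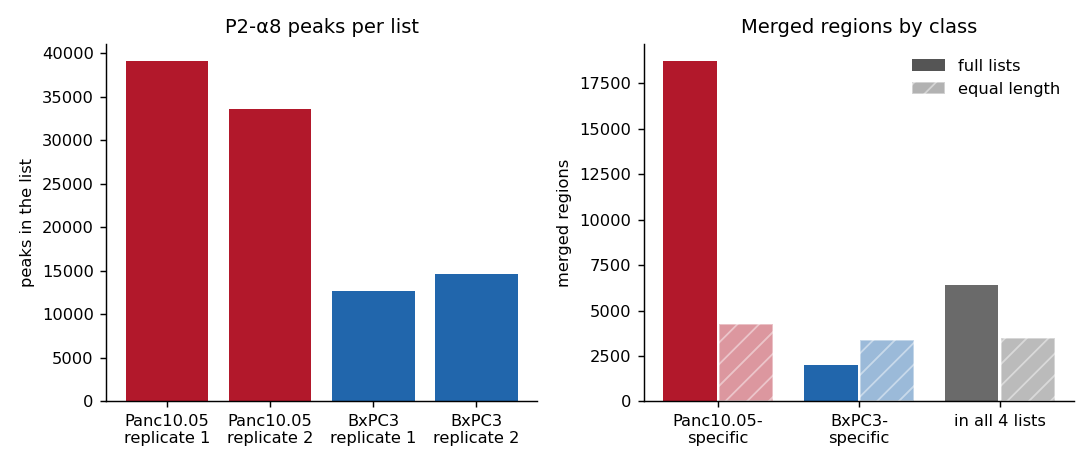
Left, number of P2-α8 peaks in each of the 4 lists (bars, 1 list each). Right, number of merged regions in each class from the full lists (solid bars) and from lists cut to 12681 peaks by fold enrichment (hatched bars): 18725, 1984 and 6383 regions become 4254, 3376 and 3474.

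Regions shared by the lines ranked higher within their lists than line-specific ones. Ranks are percentiles of fold enrichment within a list, 100 being the strongest peak. Shared regions had median percentiles of 79.2 and 78.3 in the Panc10.05 lists and 63.6 and 66.4 in the BxPC3 lists. Panc10.05-specific regions had medians of 54.1 and 45.5, and BxPC3-specific regions 45.5 and 47.8. These medians describe the classes and carry no test, because the peaks that make up a list also define them. Among the 1000 strongest peaks, 88.9% and 88.2% of the BxPC3 peaks overlapped a peak in both Panc10.05 lists. The same share was 57.8% and 64.4% for the 1000 strongest Panc10.05 peaks, of which 26.7% and 19.8% overlapped a peak in neither BxPC3 list. Of the strongest BxPC3 peaks, 8.10% and 8.20% overlapped a peak in neither Panc10.05 list. The Panc10.05 lists searched were longer than the BxPC3 lists, and this gap was smaller when the lists searched were cut to 12681 peaks, an alternative chosen after the data were seen. The shares in both lists of the other line were then 72.3% and 71.3% for BxPC3 and 56.2% and 63.0% for Panc10.05, and those in neither list 18.0% and 18.5% against 28.1% and 20.5%.

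**Figure D2:**
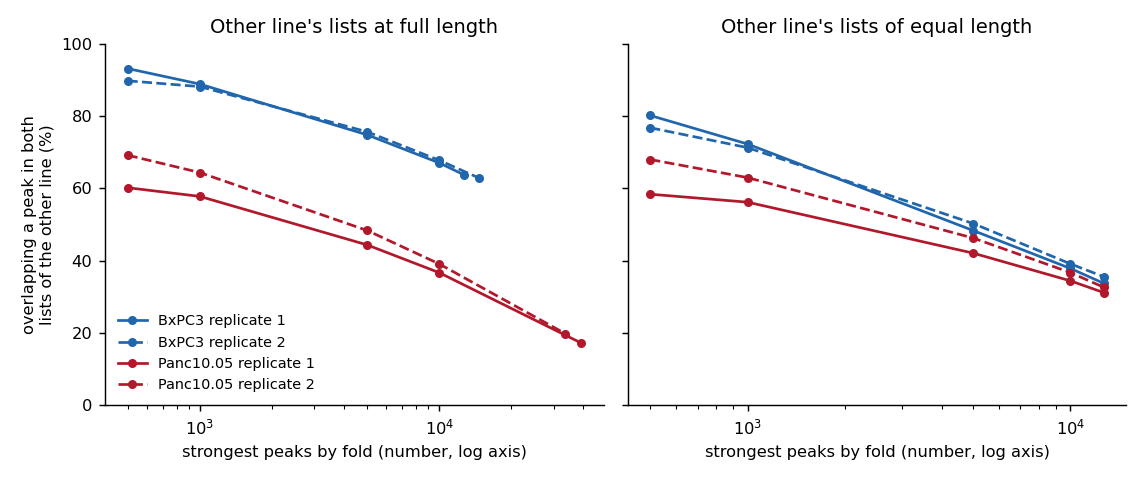
Share of the strongest P2-α8 peaks of each list (x axis, number of peaks taken by fold enrichment, log axis) that overlap a peak in both lists of the other line (y axis, %), searched at full length (left) or cut to 12681 peaks (right), with solid lines for replicate 1 and dashed lines for replicate 2. At 500 peaks the BxPC3 lists stand at 93.2% and 89.8% against 60.2% and 69.2% for Panc10.05 on the left and at 80.2% and 76.8% against 58.4% and 68.0% on the right; at 12681 peaks on the right they are 33.7% and 35.5% against 31.2% and 32.6%.

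The line-specific P2-α8 regions were next looked for in the P1-α2 lists of the same lines, which had no part in classing them. BxPC3-specific regions were found in 96.9% and 91.8% by the BxPC3 P1-α2 lists and in 10.7% and 15.2% by those of Panc10.05. The difference of the means was 81.4 percentage points (94.4 ± 3.56% against 12.98 ± 3.17%, SD, n = 2 each), beyond the spread between lists (two-sided exact permutation p = 0.333, the smallest possible). Panc10.05-specific regions were found in 54.6% and 72.4% by the Panc10.05 P1-α2 lists. The BxPC3 P1-α2 lists held 41.6% and 34.4% of them. That difference was 25.5 points (63.5 ± 12.6% against 38.0 ± 5.07%, SD, n = 2 each; exact permutation p = 0.333), also larger than the spread, with no overlap between the groups. Shared regions had a peak in the 4 P1-α2 lists in 89.97% to 99.4% of cases.

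The Panc10.05-specific class was thus mixed with respect to the α2 lists. In BxPC3, 5338 of its regions (28.5%) had a P1-α2 peak in both lists although neither P2-α8 list of that line had a peak there. Only 3821 (20.4%) followed the line in both isoforms, with peaks in both Panc10.05 and neither BxPC3 P1-α2 list, and 3517 (18.8%) had no P1-α2 peak in any list. Of the BxPC3-specific regions, 1453 (73.2%) followed the line in both isoforms, 161 (8.11%) had a peak in both Panc10.05 P1-α2 lists and 34 (1.71%) had no P1-α2 peak. Doxycycline dose and sequencing series differ with the line in the P1-α2 lists too. Following the line thus cannot be told apart from following these. The BxPC3 P1-α2 lists were long (41808 and 33737 peaks) beside the BxPC3 P2-α8 lists, and length moved these shares. With P2-α8 and P1-α2 lists each cut to a common length, an alternative chosen after the data were seen, the Panc10.05 P1-α2 lists held 55.1% and 59.3% of the Panc10.05-specific regions and the BxPC3 P1-α2 lists 14.4% and 17.5%. Of the BxPC3-specific regions they then held 62.7% and 57.5% in BxPC3 and 19.2% and 17.0% in Panc10.05. The differences were then 41.2 points for Panc10.05-specific and 42.0 points for BxPC3-specific regions, each with an exact permutation p of 0.333. They stayed unlike in size when only the P2-α8 lists were cut (37.0 and 54.2 points) or only the P1-α2 lists (31.4 and 67.8 points), each again with an exact permutation p of 0.333.

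In AsPC1, where the labels name no induced isoform, shared regions were found more often than line-specific ones in each of the 6 lists. The AsPC1 lists contained 43.2% to 58.8% of the shared, 12.1% to 25.2% of the Panc10.05-specific and 17.0% to 25.9% of the BxPC3-specific regions, with means of 49.5%, 16.2% and 19.9%. No AsPC1 peak was found at 71.9% of the Panc10.05-specific, 71.1% of the BxPC3-specific and 38.4% of the shared regions. The AsPC1 lists have another threshold than those of Panc10.05 and BxPC3. Only classes within a list are therefore compared, and absence from AsPC1 depends on that threshold. Shared regions also had the largest median width, and the part of width in this order was not tested.

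**Figure D3:**
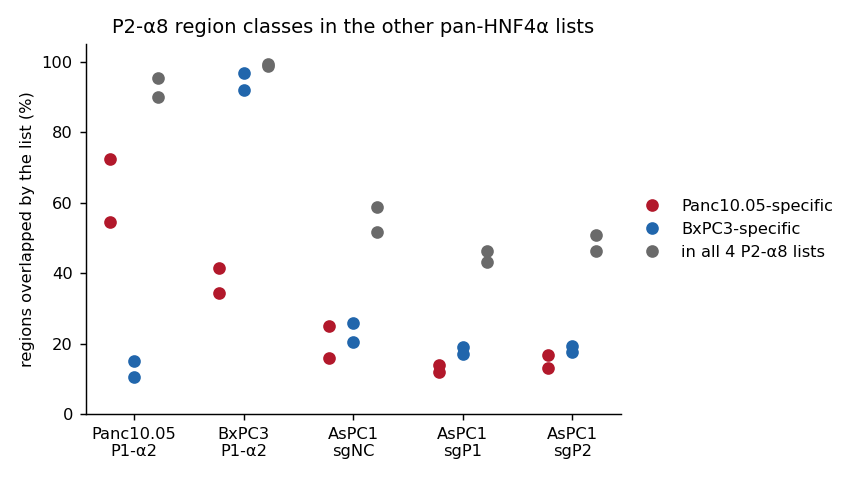
Percent of the regions of each P2-α8 class that overlap a peak of each other pan-HNF4α list (points, 1 per list, 2 per group). BxPC3-specific regions lie at 91.8% and 96.9% in BxPC3 P1-α2 and at 10.7% and 15.2% in Panc10.05 P1-α2, and shared regions are highest in every AsPC1 list.

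Panc10.05 peaks lay more often at gene starts than BxPC3 peaks. Summits within 1 kb of a start made up 11.03% and 8.74% of the Panc10.05 P2-α8 lists and 4.87% and 4.15% of the BxPC3 lists, with chromosome 8 left out of measures from starts. The means of 9.89 ± 1.62% and 4.51 ± 0.512% (SD, n = 2) differed by 5.37 points, beyond the spread between replicates (exact permutation p = 0.333). With lists of equal length the difference was 2.39 points in the same direction (exact permutation p = 0.333). The same order was seen with P1-α2, at 8.19% and 9.28% in Panc10.05 and 5.14% and 4.58% in BxPC3. Summits over 100 kb from every protein-coding gene were fewer in Panc10.05, at 11.1% and 11.7% against 14.3% and 15.6%, a difference of -3.59 points (exact permutation p = 0.333).

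Among the classes, 1920 of 17600 Panc10.05-specific regions (10.9%), 30 of 1877 BxPC3-specific regions (1.60%) and 341 of 6062 shared regions (5.63%) lay within 1 kb of a start, beside 9.64% of all regions. BxPC3-specific regions were distal: their median distance to a start was 62.7 kb, against 31.1 kb for Panc10.05-specific and 37.9 kb for shared regions, and 21.4% of them lay over 100 kb from a gene, against 10.8% and 11.6%. From lists of equal length the promoter shares were 6.78% for Panc10.05-specific, 2.44% for BxPC3-specific and 5.44% for shared regions. The Panc10.05-specific share depended on rank. It was 18.5% among regions whose mean percentile lay under 25, then 11.4%, 8.53% and 6.23% in the next bins of 25 percentiles, so it was highest among the weakest regions. For shared regions it lay between 4.49% and 6.31% in the 4 bins.

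**Figure D4:**
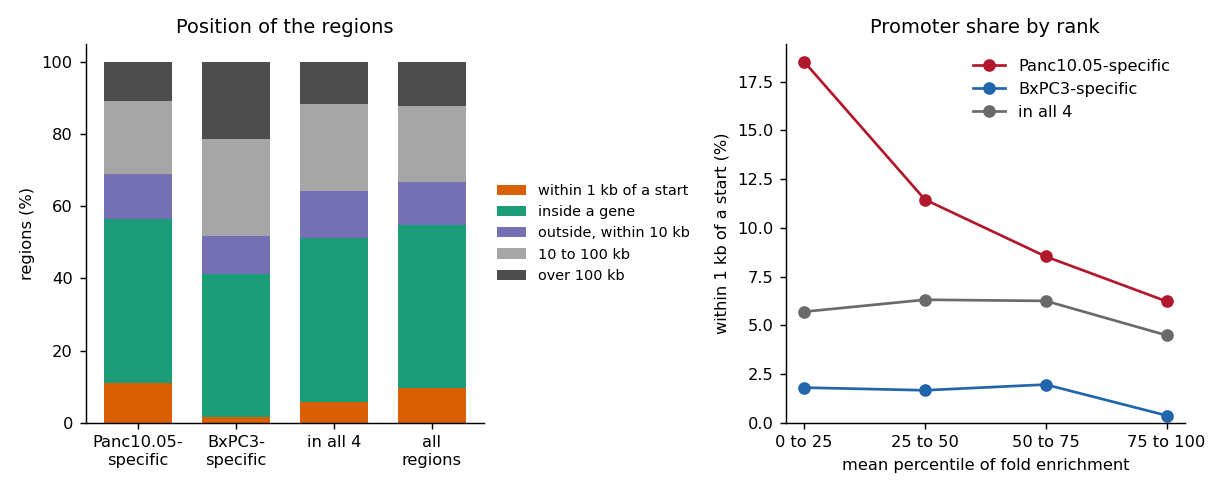
Left, position of the regions of each class and of all regions (stacked bars, % of regions, chromosome 8 left out), from within 1 kb of a gene start to over 100 kb from any gene. Right, percent of regions within 1 kb of a start by mean percentile of fold enrichment: the Panc10.05-specific share goes from 18.5% in the weakest bin to 6.23% in the strongest.

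The printed elements were counted in the 300-base RefSeq promoter windows (250 bases before to 50 after a start) that the regions overlapped, on both strands. CAAAGTCC was present in 35 of 377 windows of shared regions (9.28%), in 33 of 2128 of Panc10.05-specific regions (1.55%) and in 1 of 16 of BxPC3-specific regions, beside 1.14% of all 22199 windows. CAAAGNNCA was present in 13.5% of the shared, 5.26% of the Panc10.05-specific and 4 of 16 BxPC3-specific windows, beside 4.63% of all. TGANTCA was present in 11.7%, 5.59% and 2 of 16 windows, beside 6.15% of all. The windows of Panc10.05-specific regions thus held these 3 elements at shares near those of all promoters, and the windows of shared regions at higher shares. A match describes letters and not a bound site, and with 16 windows the BxPC3-specific shares are imprecise. TGTTTAC, the FOXA element, and AGATAA, the GATA element, were present in 3.18% and 7.69% of the shared windows and in 1.79% and 3.34% of the Panc10.05-specific windows, beside 2.85% and 7.91% of all.

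The strongest regions of each class lay mostly away from starts. The Panc10.05-specific region of highest mean rank lay at chr11:101290123-101291105, 161 kb from PGR, the progesterone receptor gene, at percentiles 99.9 and 99.9. The next lay inside PDCD6 (chr5:280035-281124), inside ZNF814 (chr19:57903626-57904485) and inside DLGAP4 (chr20:36390485-36391339), at mean percentiles of 99.8. SMIM29 (chr6:34248221-34249480) was the only one of the 8 assessed regions within 1 kb of a start. A region 258 kb from SHH (chr7:156069693-156070550), the Sonic hedgehog ligand gene, was at percentiles 99.8 and 99.4. The others lay inside RIMS2, PGLYRP2 and GRIK4 and near GPR20. Of these 10 regions, 9 were in both Panc10.05 P1-α2 lists and 3 in both BxPC3 P1-α2 lists, while 8 were in no AsPC1 list.

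The BxPC3-specific region of highest mean rank lay 14.2 kb from CNTNAP4 (chr16:76574657-76575182), which encodes a neuronal adhesion protein, at percentiles 99.2 and 99.6. It was followed by regions inside SFSWAP (chr12:131734257-131734799), inside GET1 (chr21:39385538-39386016) and 103 kb from OR13H1 (chrX:131440990-131441481). A region inside SMAD6 (chr15:66770320-66770915), an inhibitor of BMP signalling, was at percentiles 97.6 and 97.1. Others lay inside MYBPC1, 284 kb from KCNU1, 554 kb from EPHA3 and 41.3 kb from FAM216B. All 10 were in both BxPC3 P1-α2 lists, and 9 were in neither Panc10.05 P1-α2 list, the exception being the CNTNAP4 region. In AsPC1 the GET1, OR13H1 and SMAD6 regions were in all 6 lists.

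Among shared regions the highest mean rank was that of a region inside ZFP62 (chr5:180828713-180829801), at percentiles 100 and 100 in Panc10.05 and 99.8 and 100.0 in BxPC3. It was followed by regions inside NDST1 (chr5:150541672-150543639), a heparan sulfate enzyme gene, and 244 kb from JUN (chr1:59027786-59028734). NBPF1, GLCE, TENM4, OR13F1, MAP6, LAP3 and GGH were nearest to the other 7. All 10 were in each of the 4 P1-α2 lists, 4 of them were in all 6 AsPC1 lists and 4 in none.

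Some genes were nearest to many line-specific regions. With chromosome 8 left out, the 17600 Panc10.05-specific regions had 8449 different nearest genes and the 1877 BxPC3-specific regions 1431. Counting each region for its nearest protein-coding gene, MYC, the proliferation factor, had the most Panc10.05-specific regions, at 35, with 1 BxPC3-specific and 8 shared. SORCS2 had 19 and no region of the other classes, and ZMIZ1, which encodes a transcriptional coregulator, also had 19. ASAP1, EXT1, LPP and TNS3 had 18 each, GSDMC 17, and GALNT18 and MED13L 16 each. In BxPC3, MAF, a bZIP transcription factor gene, had 11 BxPC3-specific regions, none of Panc10.05 and 1 shared. BMP2, a BMP ligand gene, had 8 beside 1 Panc10.05-specific region. CDH11, a mesenchymal cadherin gene, had 6 and no region of the other classes. AHR, the aryl hydrocarbon receptor gene, had 6 of each line, and JUN had 5 BxPC3-specific, 4 Panc10.05-specific and 6 shared regions. MCTP2 and PLCB1 had 6, and ADGRL2, BCL11B and LOC102723553 had 5 BxPC3-specific regions each. The counts are not corrected for the length of a gene or its distance to neighbouring genes. MYC, ASAP1, EXT1 and GSDMC all lie on chromosome 8. Copy number at these genes cannot be read from peak lists, and its part in the counts was not tested.

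The genes around the regions were described with 13 lists of 341 genes. A gene was called for a line when both of its lists, and neither of the other line's, had a peak within 50 kb of the gene. Of these genes, 64 were called for Panc10.05, 3 for BxPC3 and 205 had a peak in all 4 lists. Over all 20037 protein-coding genes the shares were 22.4% for Panc10.05, 0.973% for BxPC3 and 43.4% for all 4 lists; the list genes had 18.8%, 0.880% and 60.1%. With lists of equal length the list genes were called 30 times for Panc10.05, 27 times for BxPC3 and 150 times for all 4, beside 9.46%, 5.96% and 32.7% of all genes. Within 10 kb of the gene, 74, 7 and 129 list genes (21.7%, 2.05% and 37.8%) were called with the full lists, beside 25%, 1.08% and 21.7% of all genes. A region specific to Panc10.05 lay within 50 kb of 68.5% of all genes and 77.1% of the list genes, one specific to BxPC3 of 10.5% and 16.7%, and a shared one of 36.4% and 51.9%. Since the calls moved with list length, the equal-length call is given beside each group. The calls rest on the P2-α8 lists alone. Several genes called for Panc10.05 had peaks in both BxPC3 P1-α2 lists, among them F7, F10, HPX, MUC1, CST6, FGFBP1, TWIST2 and NR1H4. Others, such as SERPINC1, VSIG2, MUC5AC and APOE, did not. Values after a gene are the best percentile of a peak within 50 kb of it in replicates 1 and 2, and percentiles from lists of different length are set side by side without a comparison.

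Among the liver plasma proteins and coagulation genes, 11 of 32 were called for Panc10.05 (6 at equal length) and 1 for BxPC3 (3 at equal length). These were 34.4% and 3.1% of the list, beside 22.4% and 0.973% of all genes. At equal length they were 18.75% and 9.375%, beside 9.46% and 5.96%. F11, encoding coagulation factor XI, had peaks at best percentiles of 98.5 and 93.7 in the Panc10.05 lists and none in the BxPC3 P2-α8 lists. Its Panc10.05-specific region lay at chr4:186218641-186219275, and the BxPC3 P1-α2 lists had a peak within 50 kb of the gene at percentiles 75.7 and 37.5. HPX, encoding hemopexin, had 78.2 and 92.4 and SERPINC1, encoding antithrombin, 84.1 and 78.9. RBP4, the retinol carrier of plasma, had 83.5 and 72.7. F7 and F10, neighbouring clotting factor genes, shared the same best peaks at 68.7 and 73.1. ALB, encoding albumin, was called for BxPC3 in full and equal-length lists: its region at chr4:73432151-73432481 was at percentiles 80.6 and 60.2 in BxPC3 and no Panc10.05 list of either isoform had a peak within 50 kb of the gene. This is a single site between ALB and AFP, the alpha-fetoprotein gene, and lies nearer to AFP, 3.91 kb from its start. AFP was called for BxPC3 at equal length, but in the full lists it had a Panc10.05 replicate 1 peak at 22.0 within 50 kb. Both BxPC3 P1-α2 lists had a peak near both genes, at 93.2 and 97.0. PROC, encoding protein C, had the highest-ranked shared region of the list, at a mean percentile of 95.5.

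Among the apolipoprotein and lipoprotein assembly genes, 8 of 24 were called for Panc10.05 (4 at equal length) and 12 had peaks in all 4 lists. These were 33.3% and 50% of the list, beside 22.4% and 43.4% of all genes. APOE, APOC1 and APOC2, which lie in a cluster, shared a best peak at 98.0 and 97.0 in the Panc10.05 P2-α8 lists. Their highest-ranked Panc10.05-specific region, at chr19:44903593-44904244, was a single site common to the cluster. Counted per gene, 7 Panc10.05-specific regions lay within 50 kb of APOE, 7 of APOC1 and 4 of APOC2. APOM had 80.2 and 91.4. Near the cluster of APOA1, APOC3, APOA4 and APOA5 a shared region (chr11:116838507-116839370) had a mean percentile of 98.7. Of these genes APOA1 lies nearest to it. MTTP, encoding the microsomal triglyceride transfer protein, was called for BxPC3 at 43.2 and 71.7, also at equal length. It had no peak in the Panc10.05 lists of either isoform and 3 in each BxPC3 P1-α2 list. Its P2-α8 peaks, 1 in each BxPC3 list, made up no BxPC3-specific region within 50 kb.

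Of 28 endoderm and gut transcription factor genes, 4 were called for Panc10.05 (2 at equal length), 1 for BxPC3 (2 at equal length) and 15 had peaks in all 4 lists. These were 14.3%, 3.57% and 53.6% of the list, beside 22.4%, 0.973% and 43.4% of all genes. CDX1, an intestinal homeobox gene, had 10 peaks within 50 kb in each Panc10.05 P2-α8 list, at best percentiles of 97.8 and 90.4, and none in those of BxPC3. CREB3L1, a secretory pathway factor gene, had 7 and 8 Panc10.05 peaks at best percentiles of 91.5 and 97.3. Both genes had peaks in all 6 AsPC1 lists and in both BxPC3 P1-α2 lists. FOXA2, a forkhead factor of endoderm, was the BxPC3 call, with 1 peak in each BxPC3 list at 36.9 and 32.8, 0 in the Panc10.05 lists of either isoform and 4 in each BxPC3 P1-α2 list; none of these made up a BxPC3-specific region within 50 kb. HNF4A itself had 8 and 7 peaks within 50 kb in Panc10.05, at best percentiles of 99.6 and 99.5, and 1 and 2 in BxPC3, at 52.6 and 61.6. A shared region lay inside HNF4A at chr20:44395152-44396255, at a mean percentile of 71.2. None of these 28 genes had a BxPC3-specific region within 50 kb, a share of 0% beside 10.5% of all genes.

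Among the 29 classical subtype and gastric marker genes, 6 were called for Panc10.05 (3 at equal length), 0 for BxPC3 (3 at equal length) and 15 for all 4 lists. Calls for Panc10.05 and for all 4 lists made up 20.7% and 51.7%, beside 22.4% and 43.4% of all genes. MUC1, a membrane mucin gene, had 90.01 and 92.7 in Panc10.05, with its region at chr1:155178671-155179395. MUC5AC, a gastric mucin gene, had 84.2 and 77.3, and VSIG2 had 87.3 and 81.1. BxPC3-specific regions lay within 50 kb of 8 of the 29 (27.6%, beside 10.5% of all genes), among them AGR3, LYZ and REG4, which also had peaks in both Panc10.05 lists and were called for BxPC3 at equal length. The secreted enzyme gene LYZ had best percentiles of 40.4 and 32.0 in Panc10.05 and 35.6 and 71.0 in BxPC3. MUC13 had regions of every class, with the shared region highest at a mean percentile of 90.1. Of the 28 intestinal brush border and transport genes, 2 were called for Panc10.05 (2 at equal length), 0 for BxPC3 (1 at equal length) and 17 for all 4 lists. Here the shares for Panc10.05 and all 4 lists were 7.14% and 60.7%, beside the same 22.4% and 43.4%. ANKS4B, a brush border assembly gene, and SLC15A1, the peptide transporter gene, had shared regions at mean percentiles of 97.9 and 97.0.

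Of the 34 basal and squamous genes, 6 were called for Panc10.05 (2 at equal length), 0 for BxPC3 (6 at equal length) and 21 for all 4 lists. Calls for Panc10.05 and for all 4 lists made up 17.6% and 61.8%, beside 22.4% and 43.4% of all genes. At equal length 5.88% were called for Panc10.05 and 17.6% for BxPC3, beside 9.46% and 5.96% of all genes. The Panc10.05 calls were KRT14, KRT16, KRT17, VGLL1, FGFBP1 and CST6, of which FGFBP1, at 68.5 and 72.4, and CST6, at 85.3 and 77.0, were also called at equal length. KRT16 and KRT17, neighbouring keratin genes, shared their best peaks at 38.2 and 27.6. The equal-length BxPC3 calls were AREG and EREG, neighbouring genes of EGFR ligands, SPRR1B and SPRR3, DSG3 and SCEL. AREG and EREG shared their best peaks, at 31.9 and 61.4 in Panc10.05 and 92.7 and 97.0 in BxPC3. SPRR1B and SPRR3, which lie close together, also shared their best peaks, at 59.7 and 61.4 in Panc10.05 and 49.1 and 93.4 in BxPC3. The 6 equal-length BxPC3 calls are thus not 6 separate sites. LAMB3, a laminin chain gene of the basement membrane, had the highest shared region, at a mean percentile of 97.4. Among 28 AP-1 and YAP target genes, 23 had peaks in all 4 lists (82.1%, beside 43.4% of all genes; 19 at equal length), 1 was called for Panc10.05 (0 at equal length) and 0 for BxPC3 (1 at equal length). That Panc10.05 gene was ANKRD1, at 26.7 and 25.7. CCN2, a YAP target called for BxPC3 at equal length, had 54.5 and 47.3 in Panc10.05 and 83.2 and 95.5 in BxPC3. FOS and PLAUR had the highest shared regions, at mean percentiles of 97.1 and 95.2.

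Among the 21 EMT factor and cadherin genes, 5 were called for Panc10.05 (2 at equal length), 0 for BxPC3 (1 at equal length) and 10 for all 4 lists. The shares for Panc10.05 and all 4 lists, 23.8% and 47.6%, were near the 22.4% and 43.4% of all genes. TWIST2, a mesenchymal transcription factor gene, had 76.9 and 85.0 in Panc10.05. CDH2, the N-cadherin gene, had 28.8 and 55.1 in Panc10.05 and 76.6 and 98.5 in BxPC3 and was called for BxPC3 at equal length. Of 22 proliferation control genes, 8 were called for Panc10.05 (4 at equal length), 0 for BxPC3 (2 at equal length) and 9 for all 4 lists. Here the shares for Panc10.05 and all 4 lists were 36.4% and 40.9%. CCND2, encoding cyclin D2, had 98.3 and 97.6 in Panc10.05, with its region at chr12:4276512-4277398, and SMAD7, an inhibitor of TGF-β signalling, had 90.8 and 89.3. CDKN2B, an inhibitor of cyclin D kinases, had 68.1 and 71.1 in Panc10.05 and no peak within 50 kb in any of the BxPC3 lists of either isoform. Copy number at this locus cannot be read from peak lists, and its part in this absence was not tested. The 22 tight junction genes had 3 calls for Panc10.05 (1 at equal length), 0 for BxPC3 (3 at equal length) and 18 for all 4 lists. Their shares for Panc10.05 and all 4 lists were 13.6% and 81.8%, beside 22.4% and 43.4% of all genes. PARD6B, a polarity gene, had the highest shared region of any list gene at a mean percentile of 99.0.

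Most genes of the glucose and fatty acid lists had peaks in all 4 lists (79.2% and 73.3%, beside 43.4% of all genes). At equal length these shares were 58.3% and 63.3%, beside 32.7%. Calls for Panc10.05 made up 16.7% and 6.67%, beside 22.4% of all genes. Of 24 gluconeogenesis and glycolysis genes, 19 had peaks in all 4 lists (14 at equal length), 4 were called for Panc10.05 (2 at equal length) and 0 for BxPC3 (2 at equal length). PFKL, a glycolytic enzyme gene, had 91.9 and 82.7 in Panc10.05, and TAT, an amino acid catabolism gene called for BxPC3 at equal length, had 67.3 and 50.1 in Panc10.05 and 56.3 and 71.5 in BxPC3. Of 30 fatty acid oxidation and bile acid genes, 22 had peaks in all 4 lists (19 at equal length), 2 were called for Panc10.05 (2 at equal length) and 0 for BxPC3 (2 at equal length). NR1H4, encoding the bile acid receptor FXR, had 84.4 and 98.0 in Panc10.05, and FGF19, a hormone that represses bile acid synthesis, had 85.6 and 66.4. In the BxPC3 P1-α2 lists NR1H4 had 86.5 and 93.8, and FGF19 had 40.7 and 52.1. BAAT, a bile acid conjugating enzyme gene called for BxPC3 at equal length, had 66.4 and 61.7 in Panc10.05 and 80.9 and 95.7 in BxPC3. Of 19 circadian clock genes, 10 had peaks in all 4 lists (7 at equal length), 4 were called for Panc10.05 and none for either line at equal length. The clock shares were near those of all genes, at 52.6% beside 43.4% for all 4 lists and 21.1% beside 22.4% for Panc10.05. With equal lists 36.8% had peaks in all 4, beside 32.7%. CRY2, a clock repressor gene, had the highest shared region, at a mean percentile of 96.5.

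The classes differed in their spread over chromosomes. BxPC3-specific regions were found more often than Panc10.05-specific ones on chromosome 13 (4.54% of the class against 1.13%), chromosome 15 (5.998% against 1.77%) and chromosome 16 (5.95% against 1.93%). They were found less often on chromosome 17 (1.21% against 4.85%) and chromosome 19 (1.16% against 4.32%). On chromosome 1 both BxPC3-specific (11.996%) and shared regions (11.8%) were more frequent than Panc10.05-specific ones (6.97%). The P1-α2 peak lists had the same order on these chromosomes: chromosome 13 held 1.32% and 1.56% of the Panc10.05 and 2.61% and 2.69% of the BxPC3 P1-α2 peaks. On chromosome 15 these shares were 2.55% and 2.33% against 4.16% and 4.04%. Copy number and read depth along the chromosomes cannot be read from peak lists, and their part in these shares was not tested.

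**Figure D5:**
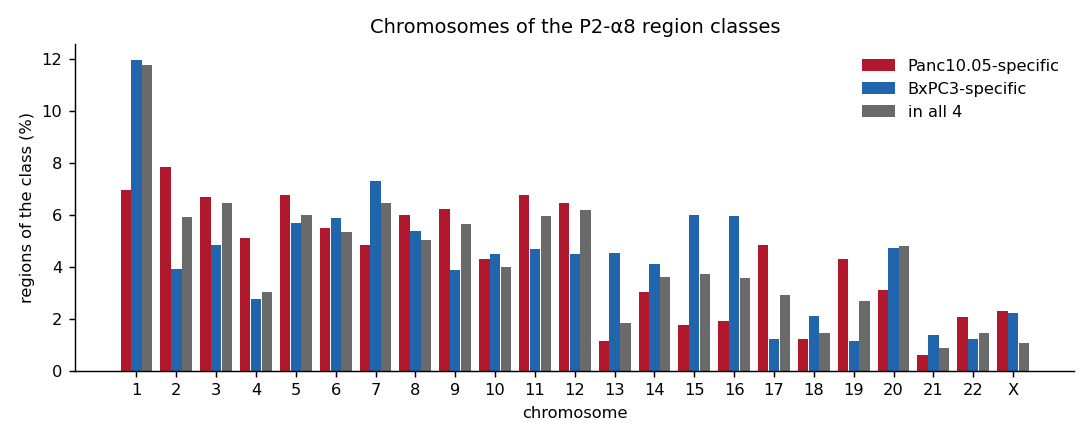
Percent of the regions of each P2-α8 class on each chromosome (bars; autosomes and chromosome X). BxPC3-specific regions stand above Panc10.05-specific regions on chromosomes 13, 15 and 16 and below them on chromosomes 17 and 19.

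Some windows of 5 Mb held many more peaks of one line than of the other. Of 598 windows with a peak, 4 had at least 40 Panc10.05 and at most 2 BxPC3 P2-α8 peaks over both lists. The largest was the window from 20 to 25 Mb of chromosome 9, with 49 and 48 peaks in Panc10.05 and 1 and 0 in BxPC3; CDKN2B lies in it. P1-α2 had 33 and 51 peaks there in Panc10.05 and 11 and 11 in BxPC3. As for whole chromosomes, copy number in the windows cannot be read from peak lists, and its part was not tested. The first 5 Mb of chromosome 2 had 22 and 21 peaks against 0 and 0. In the other direction, where the shorter BxPC3 lists had at least 20 peaks and more than Panc10.05, 24 windows were found. This rule sets no upper limit for Panc10.05, and in 22 of the 24 the BxPC3 peaks numbered under 1.5 times those of Panc10.05. The window with the fewest Panc10.05 peaks lay from 60 to 65 Mb of chromosome 16, with 11 and 11 BxPC3 peaks against 1 and 1. P1-α2 had 39 and 36 peaks there in BxPC3 and 2 and 2 in Panc10.05.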

How the data were processed

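The peak lists are the authors' deposited narrowPeak files, 1 per library, so peaks were called per library and not on pooled replicates. Per the file columns, the authors' peak calling gave each peak a fold enrichment, which is a linear ratio as deposited. The authors also deposited a −log10 p and a −log10 q for each peak, computed in their peak calling. The score column as deposited was made by the authors as a whole number of 10 times the −log10 q. Bowtie2 2.2.9, MACS2 2.2.7 and the builds hg38 and mm10 are named in the submitters' processing notes, with no role or order; the human lists were read as hg38. No peak of the Panc10.05 or BxPC3 lists had a −log10 q under 8. The deposited values give no read counts, so depth is unknown and no counting interval was computed. Fold values were used only to rank or select peaks within a list.

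Line, genotype and antibody labels gave the groups and titles the replicate numbers; labels do not state separate cultures, so p-values measure only the spread between libraries. Peaks were merged and classed with Python 3.11.15. The overlap code was checked on simulated data (39111 of 39111 regions given their true class) and against bedtools 2.31.1 (0 differences). Gene spans came from a RefSeq table of GRCh38.p14 (20037 protein-coding genes), and starts and promoter sequences from a RefSeq promoter table with starts for 15843 of these genes (79.1%). That table holds no chromosome 8 entries here, so chromosome 8 was left out of measures from starts. All 341 list genes matched by symbol. Tests were two-sided exact permutations of 2 lists against 2.

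The named genes were the nearest genes of the 10 regions of highest mean percentile in each class, the 10 genes with the most line-specific regions of each line, and list members called for a line or with the highest shared regions. Genes called for BxPC3 only at equal length were added after their values were seen, as were HNF4A, the printed promoters, CAAAGNNCA and 3 alternatives. Members and gene lists were chosen with earlier results of these data known. Some items that these rules select are left out here.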

Additional observations from a re-analysis of the deposited data

How the results depend on the processing

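Over 17 results and 115 values under alternatives, the 40 values with a test kept their direction, and 2 lists against 2 cannot reach a p under 0.333, so these p-values say nothing of stability. With lists of equal length by fold, the class counts became 4254 for Panc10.05-specific, 3376 for BxPC3-specific and 3474 for shared regions, the list genes called became 30 for Panc10.05 and 27 for BxPC3, and the AsPC1 lists held 29.9% of the BxPC3-specific regions. With a −log10 q of at least 20, BxPC3-specific regions numbered 1268, and the AsPC1 lists held 6.59%, 12.6% and 36.6% of the Panc10.05-specific, BxPC3-specific and shared regions; this alternative also cut the AsPC1 lists. A reciprocal overlap of 50% left 4155 shared peaks. Within 10 kb, 7 list genes were called for BxPC3 and 129 for all 4 lists.

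Leaving out each list gave log2 peak ratios of 1.30 to 1.52, promoter differences of 4.23 to 6.52 points and far-site differences of -4.25 to -2.93 points. It gave 20362 to 27442 Panc10.05-specific, 2254 to 4259 BxPC3-specific and 6653 to 9137 shared regions. The P1-α2 differences were then 18.6 to 23.3 points for Panc10.05-specific and 71.6 to 76.3 for BxPC3-specific regions. The AsPC1 shares were 14.1% to 18.2%, 14.9% to 22.0% and 41.8% to 48.9%, and the median percentiles 40.4 to 51.7, 37.9 to 47.1 and 68.4 to 69.1, for Panc10.05-specific, BxPC3-specific and shared regions. List genes numbered 64 to 86 for Panc10.05, 4 in each case for BxPC3 and 206 to 227 for all 4 lists.

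No label ties equal replicate numbers to a batch, so same-numbered lists were not taken as pairs. Over the 48760 regions, the difference in presence between replicates 1 and 2 was correlated between the lines. That correlation was 0.0184, and a single such value cannot settle whether the lists pair. With the replicate block the peak ratio stayed 1.41, the promoter difference 5.37 and the far-site difference -3.59, each with an exact permutation p of 0.5, the smallest the block allows. The planned share of summits with a motif was not run, since no genome sequence was used here, and promoter windows took its place. No fit with batch as a term could be had.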
